A study of Mus musculus with 12 samples.

Results

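The genes described here are 38 autophagy genes and regulators, followed across 3 zones of the embryonic mouse tibia. They were chosen by gene symbol, and each gene is represented by its probe set with the highest mean log2 signal over the 12 arrays. A probe set counted for a gene only where that symbol was the single name in the array annotation. A probe set was found for 37 of the 38 genes, out of 18193 genes named in this way on the array, and Optn was the gene without one.

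Tibiae were taken from untreated CD1 mouse embryos at embryonic day 15.5 and cut by hand along the bone. This gave 3 kinds of piece. Zone I was cartilage whose cells still rest or divide, at the ends of the bone. Zone II was the cartilage next to it, in which cells begin to enlarge and become hypertrophic. Zone III was the centre of the shaft, where matrix is mineralized and chondrocytes are at the end of hypertrophy. Pieces of a zone were pooled within a litter, and RNA from 4 litters was measured on the Affymetrix MOE 430 2.0 array, a set of short oligonucleotide probes for mouse transcripts, which gave 4 arrays per zone, lettered A to D. Setting neighbouring zones against each other asks how a gene changes along the path from resting cartilage to bone. Each zone is a mixture of cells from several embryos, and in such bulk RNA fewer cells of a type and less RNA per cell cannot be told apart.

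Autophagy encloses cytoplasm, organelles or protein aggregates in a double membrane, the autophagosome, and delivers them to lysosomes for degradation. A protein kinase complex starts the process, a lipid kinase complex marks the membrane with phosphatidylinositol 3-phosphate, and a pair of ubiquitin-like conjugation systems attaches proteins of the LC3 and GABARAP families to the growing membrane. Growth plate chondrocytes live in avascular, poorly oxygenated cartilage, and autophagy is known to support their survival and their secretion of collagen, while in osteoclasts autophagy proteins take part in forming the resorbing border.

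All 4 hypertrophic chondrocyte markers were higher in zone II than in zone I, all 6 chondrocyte markers were lower in zone III than in zone II, and all 8 osteoclast, all 7 endothelial and all 6 tested macrophage markers were higher in zone III than in zone II (5 of the 6 after quantile normalization or median centring). Of 5 tested osteoblast markers, 4 were higher in zone II than in zone I and 4 in zone III than in zone II, and their summed signal was 1142 to 1678 in zone I, 3973 to 6228 in zone II and 10828 to 11948 in zone III. Of 2 tested erythroid markers, 1 was higher in zone III than in zone II, and neither was called in the other comparisons. In zone III against zone II quantile normalization and median centring left 0 higher, and ribosomal centring gave 2. The summed signal of the 8 osteoclast markers was 662 to 716 in zone I, 465 to 846 in zone II and 8566 to 10168 in zone III. All 7 endothelial markers were lower in zone II than in zone I, with sums of 192 to 420.0 in zone II against 519 to 993 in zone I. A marker was tested if its mean signal reached 50 in any zone, so a marker could enter through zone III alone. For a marker tested only because of its zone III mean, the higher signal in zone III is given as a description. Zone I array A stood apart from the other zone I arrays, with a sum of 6 skeletal muscle markers of 1168, against 254 to 447, and the highest endothelial and macrophage sums of its zone. The ratio of 3' to 5' signal of Gapdh was 1.98 to 2.28 in zone III, against 1.25 to 1.76 over zones I and II, whereas that of actin was 1.70 to 2.02 in zone III, against 2.09 to 3.23 over zones I and II, and the part of RNA quality in the results was not tested.

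All 37 genes passed the signal floor, a zone mean of 50 or more in any zone, although Atg2a did so through zone III alone. A gene was called different at an adjusted p under 0.05 in a limma fit over 22255 probe sets. Of the 37, 25 were called in at least 1 comparison, 14 of them by at least 1.5-fold, and 12 were called in none. Of all probe sets tested, 64.7% were called in at least 1 comparison and 49.7% by at least 1.5-fold. The mean was highest in zone III for 17 genes, in zone II for 13 and in zone I for 7.

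In zone II against zone I, 11 genes were higher and 6 were lower, which is 29.7% and 16.2% of the 37. Over all probe sets tested 15.1% were called higher and 22.2% lower in the same comparison. With a further demand of 1.5-fold the counts were 4 higher and 2 lower, against 8.47% and 16.8% of all probe sets. The median log2 difference of the 37 genes was 0.07, beside −0.07 for all probe sets. Without the 3 arrays lettered A, the count of higher genes was 5 of the 37 and that of lower genes 4, against 11.0% and 18.0% of all probe sets.

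In zone III against zone II, 11 genes were higher and 4 lower, or 29.7% and 10.8%, against a background of 28.5% and 20.9%, so that the share of higher genes was close to that of all probe sets. At 1.5-fold the counts were 9 and 1, against 23.0% and 13.2%. In zone III against zone I, 12 genes were higher and 1 was lower, or 32.4% and 2.70%, against 21.0% and 19.0%, and at 1.5-fold the counts were 5 and 1, against 16.3% and 13.2%. The median log2 difference of the 37 genes was 0.11 in zone III against zone II and 0.18 in zone III against zone I, beside 0.09 and 0.01 for all probe sets. The background counts every probe set of a gene, whereas each autophagy gene enters with its brightest. The same shares of all probe sets apply to the counts by role below.

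**Figure D1:**
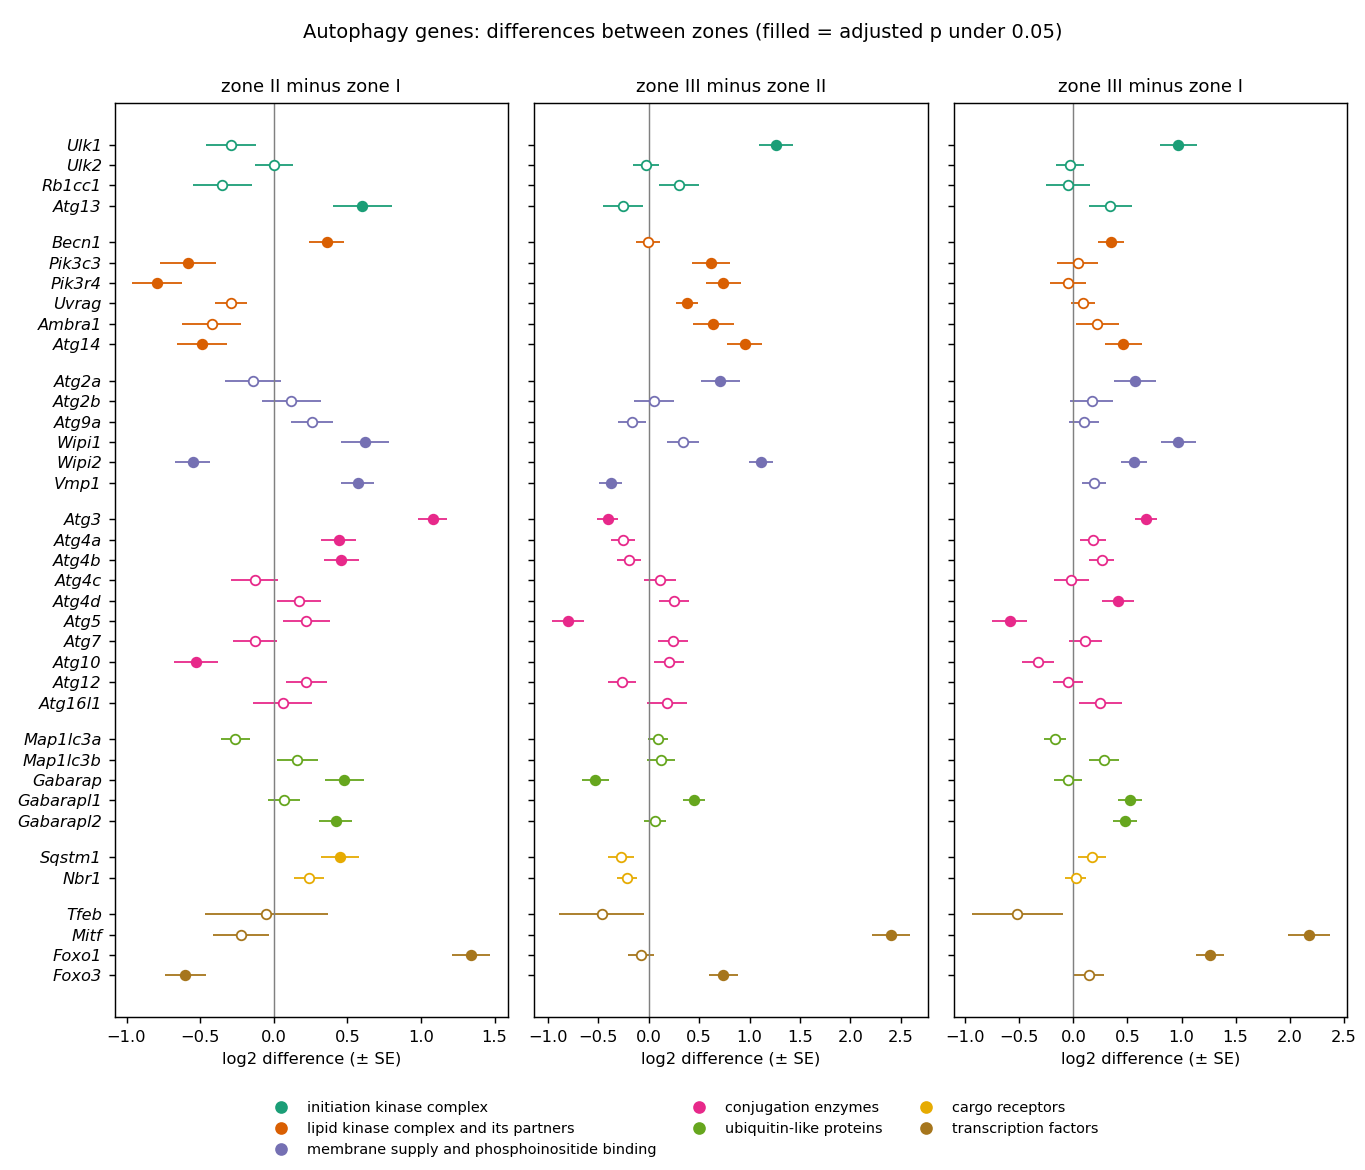
Log2 differences (x axis, ± SE from limma, 4 arrays per zone) of the 37 genes (y axis, ordered by role) for zone II minus zone I, zone III minus zone II and zone III minus zone I. Filled points have an adjusted p under 0.05, and Mitf lies farthest to the right, at 2.40 in zone III minus zone II and 2.18 in zone III minus zone I.

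How many genes were called in each direction depended on how the arrays were scaled. Quantile normalization gave 11 higher and 4 lower genes in zone II against zone I, centring on the median gave 14 and 3, and centring on 89 probe sets of ribosomal protein genes gave 2 and 13. For zone III against zone II the same scalings gave 9 and 6, 6 and 11, and 26 and 0. For zone III against zone I they gave 10 and 1, 8 and 1, and 16 and 0. Ribosomal centring placed the median difference of all probe sets at −0.42, 0.62 and 0.19 in zone II minus zone I, zone III minus zone II and zone III minus zone I, and called 4.92% of them higher and 41.5% lower, 57.8% higher and 6.13% lower, and 26.6% higher and 11.0% lower. Median centring placed these medians at 0.11, −0.15 and −0.05, with 24.3% higher and 15.4% lower, 20.3% higher and 32.0% lower, and 18.9% higher and 21.7% lower. Quantile normalization called 16.3% higher and 17.7% lower, 22.9% higher and 24.9% lower, and 20.1% higher and 21.6% lower. Centring moves every gene of a comparison by the same amount, so that the counts of the 37 genes shift with those of all probe sets. Of 45 called differences of the 37 genes, 0 changed sign with quantile normalization or median centring and 2 with ribosomal centring, those of Vmp1 and Atg3 in zone III minus zone II. Each gene below is therefore given with the scalings that ended its call.

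**Figure D2:**
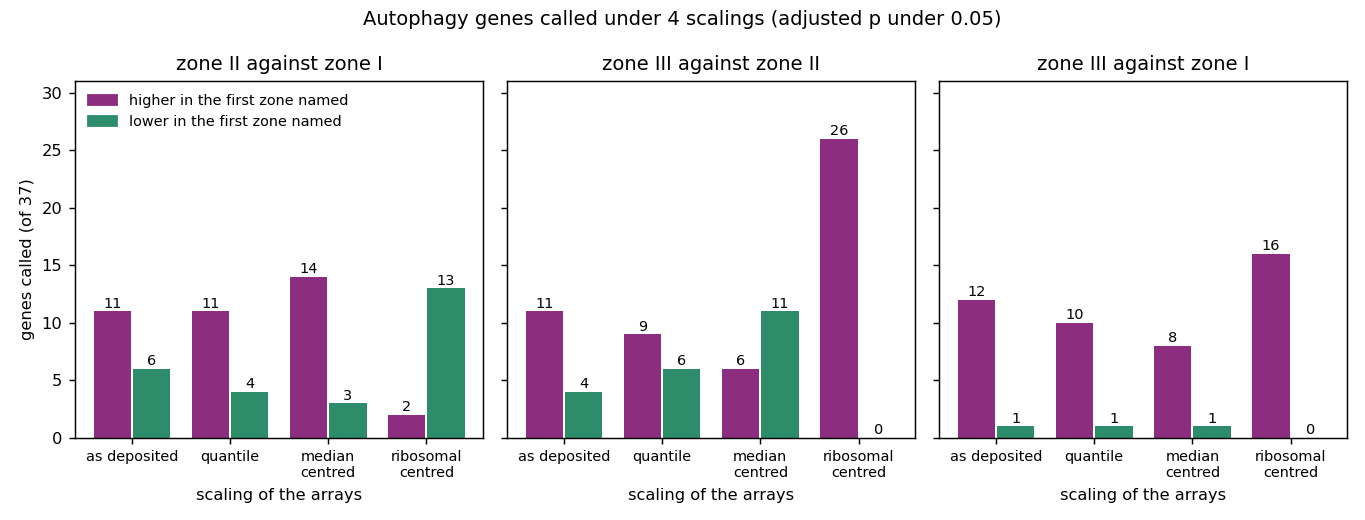
Number of the 37 genes (y axis) called higher or lower at an adjusted p under 0.05 in each comparison, under the deposited scaling, quantile normalization, median centring and ribosomal centring (x axis). In zone II against zone I the counts of higher and lower genes were 11 and 6 with the deposited scaling and 2 and 13 with ribosomal centring, which called 4.92% of all probe sets higher and 41.5% lower.

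Of the kinase complex that starts autophagy, Ulk1 and Atg13 differed between zones. Ulk1 encodes the kinase itself. Its signals were 184, 186, 152 and 133 in zone I, 127, 141, 99.8 and 170.1 in zone II, and 324, 286, 346 and 313 in zone III (arrays A to D). Every zone III array was above every array of the other zones, and zones I and II overlapped. Ulk1 was 2.40-fold higher in zone III than in zone II (log2 1.26 ± 0.17, limma adjusted p = 4.9e-05) and 1.96-fold higher than in zone I (0.97 ± 0.17, limma adjusted p = 5.5e-04), and it was called under every setting tried. A second Ulk1 probe set lay under the floor in all zones.

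Atg13, the regulatory subunit of that complex, moved between zones I and II. It gave 86.2, 96.7, 103 and 89.3 in zone I, 129, 105, 173 and 174 in zone II, and 106, 89.8, 149 and 139 in zone III. The zone II arrays lay above all zone I arrays, while zone III overlapped both. The gene was 1.52-fold higher in zone II than in zone I (log2 0.60 ± 0.20, limma adjusted p = 0.0289), and a second probe set was 1.65-fold higher (0.73 ± 0.18, adjusted p = 0.00738). The call on Atg13 was lost with ribosomal centring (0.25, limma adjusted p = 0.34) and without any 1 of zone I arrays A and D and zone II arrays C and D (log2 0.50 to 0.58, limma adjusted p 0.0618 to 0.0799). Ulk2, a relative of Ulk1, and Rb1cc1, the scaffold of the complex, were not called. A second probe set of Ulk2 was higher in zone II than in zone I (0.35 ± 0.10, limma adjusted p = 0.0171). It was also lower in zone III than in zone II (−0.32 ± 0.10, limma adjusted p = 0.0192), while another was not called. On the median of the Ulk2 probe sets these differences were 0.35 and −0.32 (limma adjusted p 0.0129 and 0.0150).

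Of the 6 genes of the lipid kinase complex and its partners, 3 (Pik3c3, Pik3r4 and Atg14) were called lower in zone II than in both other zones. In zone III against zone II, 5 of the 6 were higher and none was lower, with a median log2 difference of 0.63, whereas quantile normalization and median centring each left 2 of 6 higher and ribosomal centring gave 6. In zone II against zone I, 3 of 6 were lower and 1 was higher, with 1 lower and 1 higher by quantile normalization and by median centring, and 5 lower by ribosomal centring. Pik3r4 encodes the regulatory subunit that holds the lipid kinase in its complex. It gave 131, 138, 176 and 137 in zone I, 103, 85.0, 62.1 and 88.0 in zone II, and 135, 118, 176 and 134 in zone III. All zone II arrays were below all arrays of the other zones, which overlapped each other. Pik3r4 was lower in zone II than in zone I (−0.79 ± 0.17, limma adjusted p = 0.00343) and 1.67-fold higher in zone III than in zone II (0.74 ± 0.17, limma adjusted p = 0.00348), and both calls held under every setting tried.

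Pik3c3, the catalytic lipid kinase, had the same shape. Its signals were 162, 178, 143 and 176 in zone I, 113, 75.0, 127 and 134 in zone II, and 132, 194, 193 and 163 in zone III. Zone II lay below zone I on all arrays and overlapped zone III through 1 zone III array. It was lower in zone II than in zone I (−0.58 ± 0.19, limma adjusted p = 0.0288) and 1.53-fold higher in zone III than in zone II (0.62 ± 0.19, limma adjusted p = 0.0160), and quantile normalization and median centring ended both calls (limma adjusted p 0.0953 to 0.11). The difference between zones II and I was also lost without any 1 of zone I arrays A, B and D and zone II array B (−0.40 to −0.59, limma adjusted p 0.0523 to 0.0687).

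Atg14 directs the lipid kinase to autophagosome formation. It read 76.5, 88.6, 82.4 and 109 in zone I, 63.1, 49.5, 66.2 and 76.2 in zone II, and 107, 131, 107 and 146 in zone III. Zone II was the lowest on every array, and the highest zone I array overlapped zone III. Atg14 was 1.93-fold higher in zone III than in zone II (0.95 ± 0.17, limma adjusted p = 4.2e-04), a call that held throughout. Its difference between zones II and I (−0.49 ± 0.17, limma adjusted p = 0.0345) and that between zones III and I (0.46 ± 0.17, limma adjusted p = 0.0416) were both lost with quantile normalization and median centring. The call between zones II and I was also lost without any 1 of zone I arrays B and D and zone II arrays A, B and C (−0.37 to −0.51, limma adjusted p 0.0516 to 0.0976). That between zones III and I was lost when fluidics runs, the 3 groups of 4 arrays processed together, were blocked (0.39, limma adjusted p = 0.0724) and without any 1 of zone I arrays A, B and C, zone II array C and zone III arrays B and D (0.37 to 0.46, limma adjusted p 0.0507 to 0.12).

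Ambra1 encodes a scaffold that binds Beclin 1. Its signals were 86.6, 98.5, 111 and 86.4 in zone I, 61.1, 94.4, 48.2 and 92.4 in zone II, and 102, 99.3, 122 and 121 in zone III. The zone III arrays were above all zone II arrays, of which A and C were the lowest and B and D fell within zone I. It was 1.55-fold higher in zone III than in zone II (0.64 ± 0.20, limma adjusted p = 0.0199), but not after quantile normalization or median centring (limma adjusted p 0.14 and 0.12) nor without any 1 of zone II arrays A and C and zone III arrays C and D (0.45 to 0.59, limma adjusted p 0.0529 to 0.0534).

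The remaining partners differed by less than 1.5-fold. Uvrag, a subunit that replaces Atg14 in a second form of the complex, was higher in zone III than in zone II (0.38 ± 0.11, limma adjusted p = 0.0148), a call lost with quantile normalization and median centring (adjusted p 0.19 and 0.36). Becn1, which encodes Beclin 1, had its lowest signals in zone I, with of 515 to 592 in zone I, 605 to 822 in zone II and 671 to 733 in zone III. It was higher in zone II than in zone I (0.36 ± 0.12, limma adjusted p = 0.0292) and in zone III than in zone I (0.35 ± 0.12, limma adjusted p = 0.0307). The call between zones II and I was lost with ribosomal centring (0.01, limma adjusted p = 0.95) and without any 1 of zone I arrays A and C and zone II arrays C and D (0.28 to 0.34, limma adjusted p 0.0694 to 0.0840). That between zones III and I was lost with median centring (0.29, limma adjusted p = 0.0541) when fluidics runs were blocked (0.32, limma adjusted p = 0.0622) and without any 1 of zone I arrays A and C and the 4 zone III arrays (0.32 to 0.37, limma adjusted p 0.0518 to 0.0800). The markers of vessels ran in the same direction as the genes that were lowest in zone II, with endothelial sums of 519 to 993 in zone I, 192 to 420.0 in zone II and 2200.3 to 2461 in zone III, and their part in the result was not tested.

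Among the genes for membrane supply and phosphoinositide binding, 2 were higher and 1 was lower in zone III against zone II, with 1 and 1 by quantile normalization, 1 and 2 by median centring and 4 and 0 by ribosomal centring. Wipi1 binds phosphatidylinositol 3-phosphate on the forming membrane. Its signals were 400.5, 406, 320.2 and 287 in zone I, 628, 453, 475 and 624 in zone II, and 719, 754, 614 and 657 in zone III. Zone I was lowest on every array, and zones II and III overlapped. Wipi1 was 1.96-fold higher in zone III than in zone I (0.97 ± 0.16, limma adjusted p = 3.2e-04), a call kept under every setting, and 1.54-fold higher in zone II than in zone I (0.62 ± 0.16, limma adjusted p = 0.00735), which was lost with ribosomal centring (0.28, limma adjusted p = 0.22) and on the median of its probe sets (0.21, limma adjusted p = 0.31). Of its 5 other probe sets, 3 were also called higher in zone III than in zone I and 2 were not called there. In zone III against zone II the chosen probe set was not called (0.34 ± 0.16, limma adjusted p = 0.0846). Of the others, 2 were called higher in that comparison (0.84 ± 0.12 and 0.60 ± 0.23, limma adjusted p 9.1e-05 and 0.0461). On the median of the probe sets that difference was 0.66 (limma adjusted p = 0.00296). The osteoblast sums given above were likewise lowest in zone I and highest in zone III, and their part in the result was not tested.

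Wipi2, the relative that recruits the LC3 conjugation machinery, dipped in zone II. It gave 186, 219, 194 and 147 in zone I, 135, 115, 127 and 129 in zone II, and 279, 267, 274 and 266 in zone III. The 3 zones did not overlap. Wipi2 was 2.15-fold higher in zone III than in zone II (1.11 ± 0.12, limma adjusted p = 1.2e-05) and 1.47-fold higher than in zone I (0.56 ± 0.12, limma adjusted p = 0.00322), both under every setting. It was lower in zone II than in zone I (−0.55 ± 0.12, limma adjusted p = 0.00392), a direction that another probe set did not share. A dimmer probe set of Wipi2 gave 10.1, 28.6, 23.6 and 10.2 in zone I, 44.0, 30.5, 43.2 and 58.1 in zone II, and 57.1, 71.1, 79.9 and 62.4 in zone III, where only zone III lay above the floor of 50 on every array. The dimmer probe set passed the floor through its zone III mean alone (18.1, 44.0 and 67.6 in zones I, II and III). Its difference between zones II and I is therefore a description and does not settle the direction. On the median of the gene's probe sets, which includes it, the difference between zones II and I was 0.43 (limma adjusted p = 0.12).

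**Figure D3:**
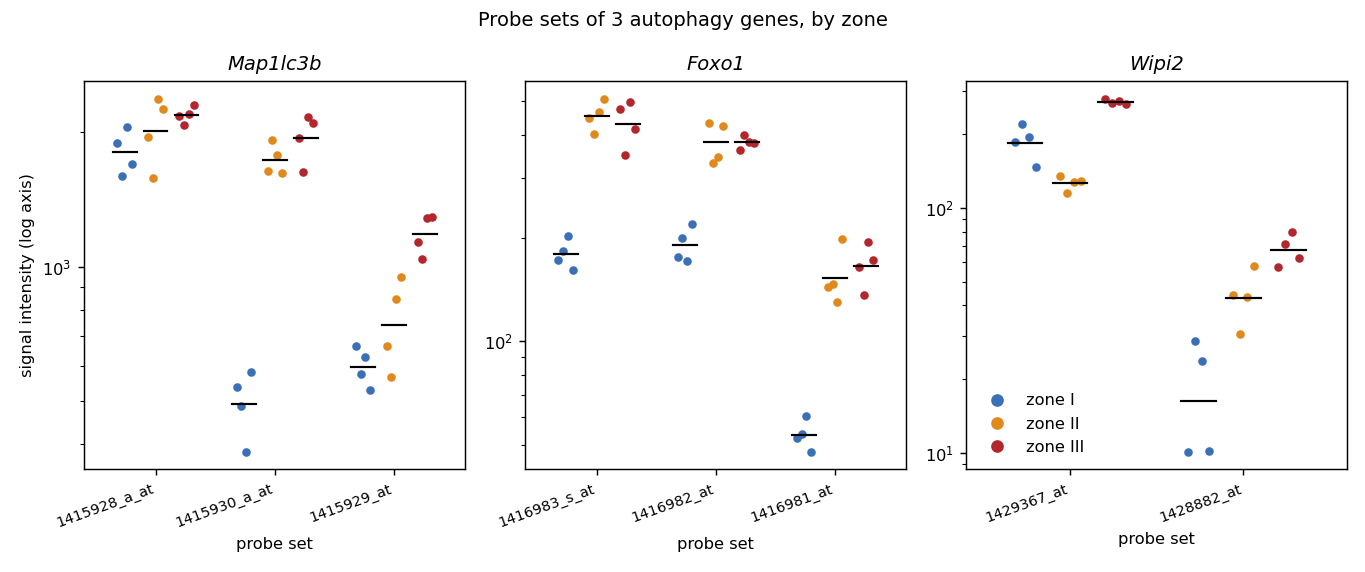
Signal intensity (log y axis) of each array in zones I, II and III for the probe sets of Map1lc3b, Foxo1 and Wipi2 that passed the floor (x axis), with bars at the zone means of log2 signals. The probe sets of Foxo1 moved together, that of Wipi2 with the lower signal had zone II above zone I, unlike the other, and the middle one of Map1lc3b was 3.53-fold higher in zone II than in zone I.

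Atg2a, a lipid transfer protein of the growing membrane, was close to the floor. Its signals were 42.2, 58.1, 35.2 and 30.8 in zone I, 41.7, 30.0, 36.2 and 39.5 in zone II, and 73.3, 54.7, 53.3 and 59.4 in zone III, so that only zone III was above 50 on all arrays. The gene was tested only because of its zone III mean, so its differences of 0.71 ± 0.19 in zone III minus zone II and 0.57 ± 0.19 in zone III minus zone I are given as a description, although both are among the counts above. The zone III arrays lay above all zone II arrays, and 1 zone I array fell inside their range. Neither difference was called after quantile normalization or median centring (0.46 to 0.51), nor that from zone I without any 1 of zone I arrays A, C and D and zone III arrays A and D. Vmp1, a membrane protein of the endoplasmic reticulum, peaked in zone II, with 767 to 889.7 in zone I, 1094 to 1452 in zone II and 917 to 991 in zone III. It was higher in zone II than in zone I (0.57 ± 0.11, limma adjusted p = 0.00149), a call lost with ribosomal centring (0.22, limma adjusted p = 0.19). Vmp1 was lower in zone III than in zone II (−0.38 ± 0.11, limma adjusted p = 0.0113). That difference turned to 0.14 under ribosomal centring (limma adjusted p = 0.35) and was lost with quantile normalization (−0.23, limma adjusted p = 0.0923). Its second probe set was called the same way in both. Atg2b and Atg9a were not called.

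Of the 10 genes of the conjugation enzymes, 3 were higher and 1 was lower in zone II against zone I, with 1 and 2 by ribosomal centring, and 0 were higher and 2 lower in zone III against zone II, with 0 and 4 by quantile normalization, 0 and 5 by median centring and 5 and 0 by ribosomal centring. Atg3 is the enzyme that transfers LC3 proteins to membrane lipid. It gave 880.4, 883, 879 and 776 in zone I, 1955, 1972, 1649 and 1685 in zone II, and 1377, 1439.6, 1339 and 1283 in zone III. The zones did not overlap, with zone II highest and zone I lowest. Atg3 was 2.12-fold higher in zone II than in zone I (1.08 ± 0.10, limma adjusted p = 7.6e-06) and 1.59-fold higher in zone III than in zone I (0.67 ± 0.10, limma adjusted p = 2.4e-04), both under every setting tried. It was lower in zone III than in zone II (−0.41 ± 0.10, limma adjusted p = 0.00522), but the value was −0.13 after quantile normalization and 0.11 after ribosomal centring (limma adjusted p 0.27 and 0.43).

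Atg5, which is joined to Atg12 to form the enzyme that places LC3 on the membrane, was the only gene of the 37 called lower in zone III than in zone I. Its signals were 499, 389.5, 317 and 469 in zone I, 592, 511, 428 and 409 in zone II, and 288, 287, 261 and 264 in zone III. Zone III was lowest on every array, and zones I and II overlapped. It was lower in zone III than in zone II (−0.80 ± 0.16, limma adjusted p = 0.00115), though not with ribosomal centring (−0.28, limma adjusted p = 0.18). A second probe set of Atg5 fell by a similar amount in that comparison (−0.68 ± 0.13, limma adjusted p = 9.4e-04). Unlike the chosen probe set, it was also higher in zone II than in zone I (0.63 ± 0.13, limma adjusted p = 0.00247). On the median of the probe sets that difference was likewise 0.63 (limma adjusted p = 0.00175). The difference between zones III and I (−0.59 ± 0.16, limma adjusted p = 0.0110) was not seen on that second probe set (−0.05 ± 0.13) and was lost with ribosomal centring (−0.41, limma adjusted p = 0.0874) and on the median of the probe sets (−0.05, limma adjusted p = 0.79).

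**Figure D4:**
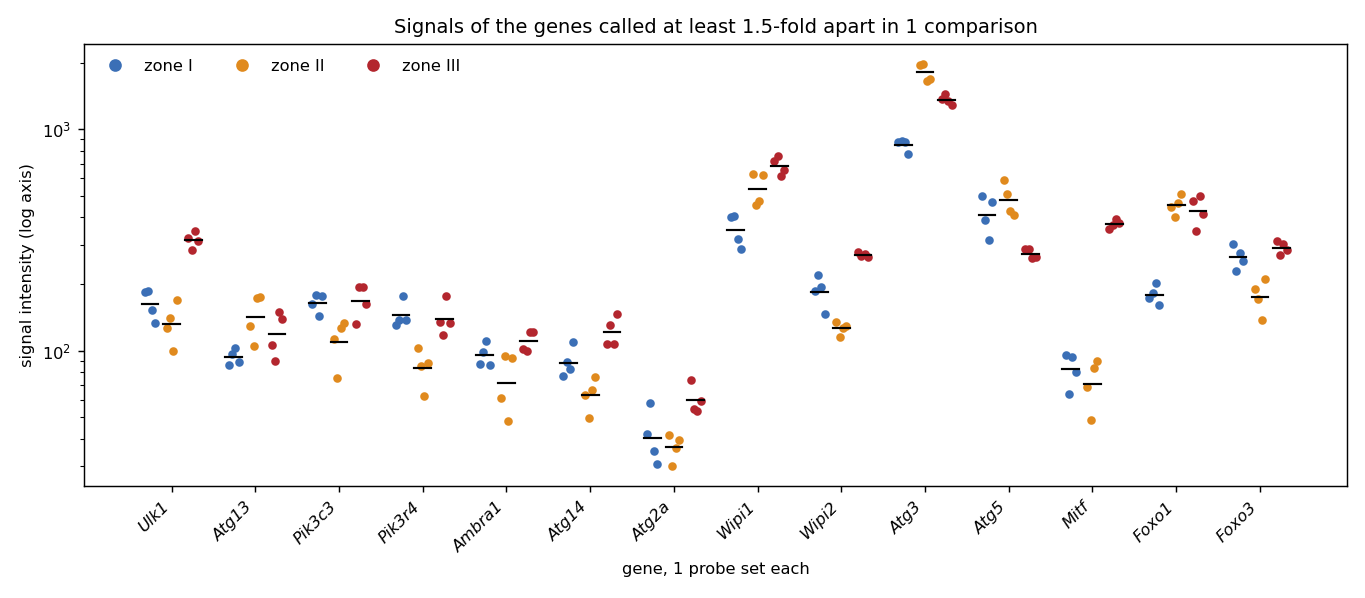
Signal intensity (log y axis) on each of the 12 arrays for the 14 genes called at least 1.5-fold apart in at least 1 comparison (x axis, 1 probe set each), with bars at the zone means of log2 signals. Mitf and Ulk1 are highest in zone III on every array, Foxo1 is lowest in zone I and Pik3r4, Foxo3 and Wipi2 are lowest in zone II, while levels of different genes are not comparable on this scale.

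Smaller differences were called for 4 other conjugation genes. The proteases that trim and recycle LC3 proteins are encoded by the Atg4 genes, of which Atg4a (0.44 ± 0.12, limma adjusted p = 0.0133) and Atg4b (0.46 ± 0.12, limma adjusted p = 0.0117) were higher in zone II than in zone I. Both calls were lost with ribosomal centring (0.09 and 0.11, limma adjusted p = 0.57 for both), and a second probe set of Atg4b was lower in zone II (−0.27 ± 0.09, limma adjusted p = 0.0311). Atg4d was higher in zone III than in zone I (0.41 ± 0.15, limma adjusted p = 0.0451), a call lost with quantile normalization and median centring (limma adjusted p 0.15 and 0.0709), when fluidics runs were blocked (0.44, limma adjusted p = 0.0520) and without 9 of the 12 arrays when each was left out in turn (zone I arrays A, C and D, zone II arrays C and D and each zone III array, 0.36 to 0.46, limma adjusted p 0.0552 to 0.12). Atg10, the enzyme that passes Atg12 to Atg5, was lower in zone II than in zone I (−0.53 ± 0.15, limma adjusted p = 0.0162), but not with quantile normalization or median centring (limma adjusted p 0.11 and 0.12). Atg4c, Atg7, Atg12 and Atg16l1 were not called, with log2 differences between −0.27 and 0.25. A second probe set of Atg12 was higher in zone II than in zone I (0.78 ± 0.24, limma adjusted p = 0.0231). It was also lower in zone III than in zone II (−0.84 ± 0.24, limma adjusted p = 0.0122). On the median of the Atg12 probe sets these differences were 0.50 and −0.55 (limma adjusted p 0.0173 and 0.00742).

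The ubiquitin-like proteins that coat the autophagosome differed by less than 1.5-fold on their chosen probe sets. Gabarap peaked in zone II, with signals of 1750.1 to 1991 in zone I, 2229.9 to 3052 in zone II and 1544 to 2002 in zone III. It was higher in zone II than in zone I (0.48 ± 0.13, limma adjusted p = 0.00985) and lower in zone III than in zone II (−0.53 ± 0.13, limma adjusted p = 0.00374), and both calls were lost with quantile normalization (0.21 and −0.16, limma adjusted p 0.17 and 0.26) and ribosomal centring (0.13 and −0.00, limma adjusted p 0.37 and 0.99). Gabarapl1 and Gabarapl2 were higher in zone III than in zone I (0.52 ± 0.11 and 0.48 ± 0.11, limma adjusted p 0.00235 and 0.00381) under every setting. Gabarapl1 was also higher in zone III than in zone II (0.45 ± 0.11, limma adjusted p = 0.00425), a call lost with median centring (0.21, limma adjusted p = 0.14). Gabarapl2 was also higher in zone II than in zone I (0.42 ± 0.11, limma adjusted p = 0.00965), a call lost with ribosomal centring (0.08, limma adjusted p = 0.70). Map1lc3a was not called, but it was lower in zone II than in zone I with quantile normalization (−0.40, limma adjusted p = 0.00605) and ribosomal centring (−0.61, limma adjusted p = 0.00144).

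Map1lc3b, which encodes LC3B, the usual marker of autophagosomes, depended on its probe set. On the brightest, the signals were 1894, 1596, 2058 and 1701 in zone I, 1954, 1578, 2377 and 2250.2 in zone II, and 2171, 2073, 2192 and 2301 in zone III. No comparison was called on it (0.16 ± 0.14 in zone II minus zone I, limma adjusted p = 0.40), and only zone III and zone I did not overlap. With quantile normalization and ribosomal centring this probe set was higher in zone III than in zone II (0.48 and 0.64, limma adjusted p 0.0129 and 0.00320) and zone I (0.42 and 0.45, limma adjusted p 0.0271 and 0.0356). A second probe set of Map1lc3b read 538, 487, 385 and 580.4 in zone I, 1636, 1925, 1782 and 1621 in zone II, and 1941, 1626, 2165 and 2098 in zone III, where every zone I array was below all others. On that probe set Map1lc3b was 3.53-fold higher in zone II than in zone I (1.82 ± 0.14, limma adjusted p = 1.7e-06) and 3.96-fold higher in zone III than in zone I (1.98 ± 0.14, limma adjusted p = 4.4e-07). Another, dimmer probe set was higher in zone III than in zone II (0.68 ± 0.16, limma adjusted p = 0.00382) and zone I (0.99 ± 0.16, limma adjusted p = 3.6e-04). On the median of the probe sets Map1lc3b was higher by 1.44 in zone II and by 1.67 in zone III than in zone I (limma adjusted p 9.4e-07 and 1.2e-07), so the gene would be counted as changed by that rule and was not by the brightest probe set.

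Of the cargo receptors, which link ubiquitinated cargo to LC3, Sqstm1, the gene of p62, was higher in zone II than in zone I. Its signals were 621 to 673 in zone II against 418 to 608 in zone I (0.45 ± 0.13, limma adjusted p = 0.0149). The call was lost with ribosomal centring (0.11, limma adjusted p = 0.60). Nbr1 was not called, with 1946 to 2217 in zone II against 1589.8 to 1869.5 in zone I (0.24 ± 0.10, limma adjusted p = 0.0828). Over all 37 genes, 52 further probe sets were present and 27 of them passed the floor. These gave 36 differences that could be set beside a called difference of the chosen probe set, of which 32 had the same sign, 4 the opposite one, and 18 were called in the same direction.

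Tfeb and Mitf belong to the MiT/TFE family, which switches on lysosome and autophagy genes, and Mitf also acts in the osteoclast and melanocyte lineages. Mitf gave 95.8, 64.0, 93.3 and 79.8 in zone I, 68.8, 48.5, 83.4 and 89.7 in zone II, and 354, 368, 392 and 379 in zone III. Every zone III array was far above all others, and zones I and II overlapped. It was 5.28-fold higher in zone III than in zone II (2.40 ± 0.19, limma adjusted p = 6.6e-07) and 4.54-fold higher than in zone I (2.18 ± 0.19, limma adjusted p = 2.0e-06), under every setting tried. All 8 osteoclast markers were higher in zone III in both comparisons, with the sums given above, and the sum of 7 macrophage markers was 1122 to 1965 in zone I, 508 to 836 in zone II and 4039 to 4888 in zone III. All 6 macrophage markers that passed the floor were higher in zone III than in zone II. Against zone I, only 2 of these 6 were higher and 1 was lower, with a median log2 difference of 0.07. The limit given above for markers tested through zone III alone applies to the osteoclast and macrophage markers. The part of these cells in the Mitf difference was not tested.

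Other factors of this family did not all move with Mitf. Tfec, a relative known from macrophages and osteoclasts, lay under the floor of 50 on every array of zone I (1.91 to 13.5) and zone II (1.56 to 4.47) and read 68.5 to 95.2 in zone III. Tfeb was not called, and its arrays were widely spread, from 70.0 to 220.1 in zone I, 108 to 164 in zone II and 43.1 to 175 in zone III (−0.47 ± 0.42 in zone III minus zone II, limma adjusted p = 0.38). Tfe3 was not called either.

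Foxo1 and Foxo3 encode forkhead factors that raise autophagy genes in muscle and act in chondrocytes. Foxo1 gave 173, 183, 203 and 161 in zone I, 447, 402, 465 and 509 in zone II, and 474, 348, 498 and 415 in zone III. All zone I arrays were below all others, and zones II and III overlapped. It was 2.53-fold higher in zone II than in zone I (1.34 ± 0.13, limma adjusted p = 1.1e-05) and 2.40-fold higher in zone III than in zone I (1.26 ± 0.13, limma adjusted p = 1.2e-05), under every setting, and 2 further probe sets of Foxo1 were called the same way (0.99 and 1.52 in zone II minus zone I, 0.99 and 1.64 in zone III minus zone I). The sum of 4 hypertrophic chondrocyte markers was also lowest in zone I. It was 439 to 625 in zone I, 9720.4 to 11190.5 in zone II and 5596 to 6896 in zone III. The osteoblast sums given above were lowest in zone I too, and the part of either cell type in the Foxo1 difference was not tested.

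Foxo3 took the other course. It read 303, 229, 276 and 255 in zone I, 190.0, 171, 137 and 209.7 in zone II, and 312, 271, 303 and 285 in zone III. The zone II arrays were below all others, and zones I and III overlapped. Foxo3 was lower in zone II than in zone I (−0.60 ± 0.14, limma adjusted p = 0.00543) and 1.67-fold higher in zone III than in zone II (0.74 ± 0.14, limma adjusted p = 8.3e-04), under every setting, and a second probe set was called in the same directions (−0.61 ± 0.18 and 0.50 ± 0.18). Foxo4, which was not among the 37 genes, peaked in zone II, with 217 to 329 in zone I, 561 to 689.6 in zone II and 131 to 196 in zone III (1.24 ± 0.16 in zone II minus zone I and −1.92 ± 0.16 in zone III minus zone II, limma adjusted p 8.3e-05 and 1.1e-06).

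**Figure D5:**
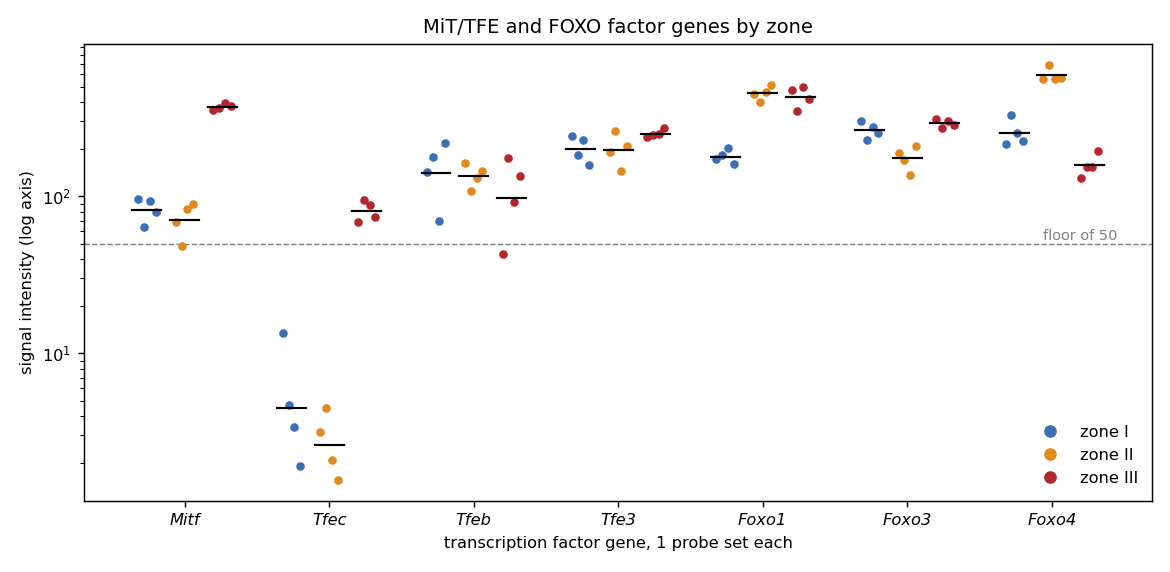
Signal intensity (log y axis) on each of the 12 arrays for the genes of MiT/TFE and FOXO factors (x axis, 1 probe set each), with bars at the zone means of log2 signals and a dashed line at the floor of 50. Mitf and Tfec are highest in zone III, where Tfec alone of the 3 zones is above the floor, and the zone I, II and III arrays order differently for Foxo1, Foxo3 and Foxo4.

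Promoters were read for the letters CACGTG, which MiT/TFE factors bind, in either orientation. RefSeq promoters of 300 bases (250 before and 50 after the start) were given for 31 of the 37 genes. The letters were in the promoters of 4 of these 31 genes (12.9%), against 8.09% of 27025 genes, and with a T before and an A after them in 1 (Atg3, 3.23%, against 1.12%). The forkhead letters GTAAACA were in none of the 31, against 4.05% of all genes. The windows of the matches are shown because 3 of the 4 genes, Atg3, Atg5 and Atg14, were among those described in full above, and capitals mark CACGTG (GRCm38.p6, 5′ to 3′ on the strand of the gene).
Atg3, chr16:45158723-45158752, plus strand: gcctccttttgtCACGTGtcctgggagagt
Atg3, chr16:45158746-45158775, plus strand: ggagagtcgagtCACGTGaggccttaggtg
Atg5, chr10:44268313-44268342, plus strand: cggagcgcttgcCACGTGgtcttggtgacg
Atg7, chr6:114670952-114670981, plus strand: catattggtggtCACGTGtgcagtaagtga
Atg14, chr14:47568418-47568447, minus strand: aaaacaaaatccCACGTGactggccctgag
On their chosen probe sets these 4 genes did not share a course over the zones. Atg3 peaked in zone II, Atg14 was lowest there, Atg5 was lowest in zone III and Atg7 was not called. A second probe set of Atg5, however, was highest in zone II, with means of 99.4, 154 and 96.2 in zones I, II and III. A match of letters is a description and not a bound site.

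Further pathway genes were counted with the same test. Of 81 tested, 13 were higher and 14 lower in zone II against zone I, 37 higher and 11 lower in zone III against zone II, and 29 higher and 9 lower in zone III against zone I, where the last 2 comparisons called 45.7% and 35.8% of them higher. Quantile normalization gave 11 higher and 9 lower of these in zone II against zone I, median centring 23 and 8, and ribosomal centring 5 and 26. In zone III against zone II the same scalings gave 32 and 14, 24 and 21, and 61 and 6, and in zone III against zone I 34 and 10, 26 and 10, and 43 and 6. The shares of all probe sets under each scaling, given above, apply to these counts and to those of the lists below. Genes of the lysosome, the compartment where the cargo is degraded, were higher in zone III than in zone II for 11 of 18. That is 61.1%, and 5.56% (1 gene) were lower, beside 28.5% and 20.9% of all probe sets. The median log2 difference of these genes was 0.64, and 9 to 16 of 18 were higher under the other scalings. Among them Clcn7, a chloride transporter of lysosomes and of the osteoclast border, was higher by 2.55 ± 0.29 and the sialidase gene Neu1 by 1.45 ± 0.19 (limma adjusted p 1.3e-05 and 4.8e-05). These genes ran in the same direction as the osteoclast markers above, and the part of osteoclasts was not tested.

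Fusion of autophagosomes with lysosomes was represented by 15 genes, of which 7 were higher and 2 lower in zone III against zone II, but 3 higher and 5 lower with median centring. The first counts are 46.7% and 13.3%, beside 28.5% and 20.9% of all probe sets. Median centring called 20.3% and 32.0% of all probe sets. Plekhm1, an adaptor of fusion that osteoclasts need for resorption, was higher by 1.68 ± 0.14 and the tether Tecpr1 by 1.02 ± 0.15, while Rab33b, a small GTPase that binds the Atg16l1 complex, was lower (−1.22 ± 0.15). Among 13 other cargo receptors, 6 were higher and 3 lower in the same comparison (46.2% and 23.1%), and 4 higher and 4 lower with median centring. Retreg1, a receptor for the endoplasmic reticulum, was higher by 2.09 ± 0.17 and Wdfy3, an adaptor for aggregates, by 1.69 ± 0.15, both after being lower in zone II than in zone I (−0.98 ± 0.17 and −1.01 ± 0.15). Bnip3, a hypoxia-induced receptor for mitochondria, did the opposite, higher in zone II than in zone I (0.67 ± 0.14) and lower in zone III than in zone II (−1.37 ± 0.14), the first of which was 0.35 after quantile normalization (limma adjusted p = 0.0657).

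Nutrient and energy sensing was represented by 21 genes, with 2 higher and 4 lower in zone II against zone I and 7 higher and 2 lower in zone III against zone II, where median centring gave 5 and 6. In zone II against zone I these were 9.52% and 19.0%, beside 15.1% and 22.2% of all probe sets. In zone III against zone II they were 33.3% and 9.52%, beside 28.5% and 20.9%. Prkab1, a subunit of the energy sensor AMPK, was higher by 1.42 ± 0.14 in zone III than in zone II and Sesn2, a leucine sensor, by 1.24 ± 0.16. Deptor, an inhibitor of mTOR, was higher in zone II than in zone I (0.80 ± 0.12) and lower in zone III than in zone II (−1.33 ± 0.12, limma adjusted p = 2.4e-06). Rragd, a GTPase that brings mTOR to lysosomes, was higher in zone II than in zone I (1.21 ± 0.16, limma adjusted p = 1.2e-04). Of 10 tested genes of other membrane and lipid kinase functions, 3 were higher and 1 lower in zone II against zone I, and 4 higher and 2 lower in zone III against zone II. Ribosomal centring gave 1 and 2 in zone II against zone I and 7 and 2 in zone III against zone II, median centring 6 and 1, and 2 and 4, and quantile normalization 3 and 1, and 3 and 3. In the second comparison Bcl2, which binds Beclin 1, and Tmem41b, a partner of Vmp1 in the endoplasmic reticulum, were lower (−1.55 ± 0.13 and −1.40 ± 0.12, limma adjusted p 1.3e-06 and 1.8e-06).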

How the data were processed

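RNA from 12 samples, 4 per zone, was measured on 1-colour arrays. The signal intensities were used as the authors deposited them, linear values from 0.012 to 8019, scaled so that every array had a mean of 150.0 after trimming 2% at each end. The submitters' processing notes name RMA and the methods also name GCRMA, which such values do not resemble, and no source used here gives the algorithm behind the table. Depth has no counterpart on arrays, and 4 arrays per zone limit the precision.

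Of 45101 probe sets, 64 were controls, 34945 carried 1 gene symbol in GEO's platform annotation, 932 several and 9160 none. Log2 was taken without a pseudocount, and the 22255 probe sets whose mean reached 50 in some zone were tested. limma 3.58.1 in R 4.3.3 (lmFit, eBayes) fitted the 3 zones on all 12 arrays without covariates, after being checked on simulated data, with Benjamini-Hochberg adjustment of p-values per comparison. In the simulated data 200 of 22255 probe sets were changed. The fit recovered 24 to 30% of 1.5-fold, 58 to 66% of 2-fold and 89 to 95% of 4-fold changes. A gene that was not called can therefore still differ between zones. All values are log2 differences ± SE unless called signals. The genes and lists were chosen with earlier results of these data known. Genes called at 1.5-fold or more were described in full, smaller calls with their difference, and of each other list at most 4 called genes per direction were named. Alternatives were other scalings, filters, weights, blocks and probe set rules, a pseudocount of 16 and leaving out arrays. Files of the array runs placed the arrays in 3 fluidics runs of 4 on 1 day, each holding all zones. Lists were for nutrient sensing, membrane supply, cargo, fusion, lysosomes, MiT/TFE and FOXO factors, and markers of chondrocytes, hypertrophic chondrocytes, osteoblasts, osteoclasts, macrophages, endothelium, erythroid cells and skeletal muscle. Micromass cultures and qRT-PCR were not analysed here.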

Additional observations from a re-analysis of the deposited data

Results flagged for a closer look

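In 7 of 111 groups of 4 arrays, 1 array lay far from the other 3 by Dixon's test at its 95% critical value, which chance alone passes in about 1 in 20 groups. In zone I, Pik3r4 read 176 on array C against 131 to 138 on the others, Atg2b 189 on array B against 111 to 114, Sqstm1 608 on array B against 418 to 449.9, and Atg3 776 on array D against 879 to 883. In zone II, Rb1cc1 read 113 on array A against 197 to 213. In zone III, Atg4a read 389 on array C against 341 to 348, and Atg7 read 135 on array C against 167 to 171. The called differences of Pik3r4, Atg3 and Sqstm1 held when these arrays were left out. The called difference of Atg4a was between zones II and I, so leaving out a zone III array could not change its size.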

How the results depend on the processing

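Of 45 called differences of the 37 genes, 18 held in every alternative and without each single array, and 8 more were lost only by another scaling. Within fluidics runs 1, 2 and 3, 9, 13 and 19 of them moved by more than the spread between replicates. All 45 kept their sign in all 3 runs, and each run held only 1 or 2 arrays of a zone. Calls lost numbered 14 with quantile normalization, 12 with median centring, 14 with ribosomal centring, 12 with no filter on signal, 7 on the median of the probe sets, 14 without the 3 arrays lettered A (an alternative chosen after seeing the data, with fewer arrays), 3 with the fluidics run as a block (Becn1, Atg14 and Atg4d in zone III minus zone I), 3 with trend and robust fitting, 2 with array weights and 2 with only the 8 arrays compared. None was lost with 16 added before log2. Differences of the 37 genes that were called by an alternative alone numbered 10 with quantile normalization, 10 with median centring, 26 with ribosomal centring and 8 on the median of the probe sets. The letters A to D were not taken as pairs, since the rule asked for a correlation of deviations over 0.1 in every same-letter pair. It was passed by 8 of 12 same-letter pairs of arrays (−0.13 to 0.26). This is a larger share than the 5 of 36 pairs with different letters (−0.30 to 0.23). By the methods the zones came from the same litters, but letters are not tied to litters there. The main fit left this sharing out. With the letter as a replicate block, 1 call was lost (Atg4d in zone III minus zone I, 0.41, limma adjusted p = 0.0793).

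Directions turned for Wipi2 in zone II minus zone I on the median of its probe sets (0.43), and with ribosomal centring for Vmp1 (0.14) and Atg3 (0.11) in zone III minus zone II. In zone II against zone I, the count of higher genes (11) became 2 with ribosomal centring, 5 without the arrays lettered A and 4 at 1.5-fold, and the count of lower genes (6) became 3 with no filter, 3 with median centring, 13 with ribosomal centring and 2 at 1.5-fold. In zone III against zone II, the count of higher genes (11) became 6 with median centring and 26 with ribosomal centring, and the count of lower genes (4) became 11 with median centring, 0 with ribosomal centring and 1 at 1.5-fold. In zone III against zone I, the count of higher genes (12) became 5 at 1.5-fold, and the count of lower genes (1) became 0 with ribosomal centring and on the median of the probe sets. Shares of all probe sets for the scalings, the 1.5-fold rule and the fit without the arrays lettered A are given above. With no filter, 10.1% of all probe sets were lower in zone II against zone I. Leaving out each array in turn gave 9 to 11 higher and 4 to 6 lower genes in zone II against zone I, 10 to 11 and 4 to 5 in zone III against zone II, and 8 to 12 and 1 in zone III against zone I. The cause of these shifts was not tested, apart from the fewer arrays and probe sets in some alternatives.

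Signals near the floor of 50, as for Atg2a and the second Wipi2 probe set, limit precision, and 25 of 52 further probe sets of these genes lay under it. Zones are mixtures whose cell types differ, with RNA pooled within litters.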
